A study of Mus musculus with 172 samples.

Results

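The BXD lines are recombinant inbred mice in which the genomes of C57BL/6J (B6) and DBA/2J (D2) segregate, and each line is fixed for one parental allele at nearly every place of the genome. Described here are the 33 BXD/RwwJ lines of the study, split by the alleles they carry on chromosome 4 at *Acot11* and *Cyp4a32*, as the paper's figures mark them. B6 alleles at both genes are carried by 8 lines (BXD44, BXD49, BXD61, BXD66, BXD75, BXD83, BXD95 and BXD96), called B6 lines below, and D2 alleles at both genes by 19 lines, called D2 lines. The other 6 lines are mixed. BXD67 carries the D2 allele at *Acot11* and the B6 allele at *Cyp4a32*, and BXD43, BXD87, BXD90, BXD100 and BXD101 carry the B6 allele at *Acot11* and the D2 allele at *Cyp4a32*. In each line, gene expression was quantified in cerebral cortex and in liver of undisturbed control mice (Ctr) and of mice kept awake for 6 h from light onset (SD), all males aged 11 to 14 weeks and killed at zeitgeber time 6, the hour at which SD ended. One library was made per line, tissue and condition from RNA pooled over the mice of that line, so that the line is the replicate, and the 33 lines give 132 of the 172 libraries in the tables. Lines were treated as independent, although BXD48 and BXD96 are sublines of the same line by their labels. Relatedness among lines did not enter the fits. BXD/TyJ lines, for which the paper's marks were not used, and the parental and F1 pools did not enter the comparisons.

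*Acot11* encodes an acyl-CoA thioesterase, an enzyme that splits fatty acyl-CoAs into free fatty acids and coenzyme A. *Cyp4a32* belongs to a cluster of cytochrome P450 genes whose enzymes hydroxylate fatty acids, arachidonic acid among them, at the omega end, and several genes of that cluster are targets of PPAR alpha, the receptor that turns on fatty acid oxidation in liver. Because neighbouring genes are inherited together, lines that differ at these genes also differ at most genes between and around them. A gene close to the sequence variant that alters its level then differs between the groups of lines in the way *Acot11* and *Cyp4a32* do.

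In mm9, the build of the deposited tables, *Acot11* lies on the minus strand of chromosome 4 at chr4:106417160-106477603 and *Cyp4a32* on the plus strand at chr4:115273574-115294207, 8.86 Mb further on by gene start. *Tceanc2*, a gene named for a domain of transcription elongation factor A, lies 0.39 Mb after *Acot11* at chr4:106806760-106851721 on the minus strand. It had the lowest p between the haplotypes in Ctr in both tissues, and the promoters of these 3 genes are therefore shown. Each sequence holds the 250 bases before a transcription start of RefSeq (GRCm38.p6), has exactly 1 match on chromosome 4 of mm9, and is written 5′ to 3′ on the gene's strand in the C57BL/6J reference. Capitals mark TATAAA and GGGCGG on either strand (a TATA box and a GC box), so that they read TTTATA and CCGCCC where the match is on the other strand.

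Acot11, chr4:106477613-106477862, minus strand: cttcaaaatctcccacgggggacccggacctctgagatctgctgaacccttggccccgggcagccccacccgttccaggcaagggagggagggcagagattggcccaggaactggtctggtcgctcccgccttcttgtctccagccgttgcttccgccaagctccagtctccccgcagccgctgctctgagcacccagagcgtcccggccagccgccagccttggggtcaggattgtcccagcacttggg
Tceanc2, chr4:106850972-106851221, minus strand: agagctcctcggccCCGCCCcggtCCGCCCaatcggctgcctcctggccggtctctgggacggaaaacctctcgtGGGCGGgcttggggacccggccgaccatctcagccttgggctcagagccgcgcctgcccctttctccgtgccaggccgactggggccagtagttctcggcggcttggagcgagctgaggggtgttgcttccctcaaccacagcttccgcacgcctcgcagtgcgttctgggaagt
Cyp4a32, chr4:115273293-115273542, plus strand: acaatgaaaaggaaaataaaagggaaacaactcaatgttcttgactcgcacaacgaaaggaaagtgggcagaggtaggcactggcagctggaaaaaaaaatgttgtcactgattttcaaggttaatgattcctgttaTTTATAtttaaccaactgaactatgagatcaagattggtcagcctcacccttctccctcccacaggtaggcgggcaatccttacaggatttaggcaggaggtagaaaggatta

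The stretch before *Cyp4a32* is 41.6% G and C and holds TATAAA 1 time, a motif found in 12.4% of the 32851 promoters of this length in the table. That before *Tceanc2* is 68.8% G and C and holds GGGCGG 3 times, a motif found in 32.7% of them. It lies inside *Tceanc2* as placed above, because the RefSeq start is further downstream, and it overlaps the start of *Tmem59* on the opposite strand. For *Acot11* the table has 2 starts, and the one nearest to the start of the gene in mm9 is shown. The stretch before it is 66.4% G and C and holds neither motif, whereas that before the other start, inside the gene at chr4:106472437-106472686, is 65.2% G and C and holds GGGCGG 3 times. These matches describe the reference sequence only, and sequence differences between the strains in these stretches were not analysed here.

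The unit throughout is log2 CPM, the base-2 logarithm of a gene's reads after scaling to the size of its library (CPM). That size is the total of the library adjusted by the authors with edgeR's TMM method. Cortex libraries of the 33 lines held 19025159 to 28998853 counted reads, and liver libraries 4681101 to 8269401, so that values in liver carry more counting error. D2 and B6 lines were compared gene by gene with limma, with Benjamini-Hochberg adjustment across every gene of the tissue's table, and a gene with an adjusted p under 0.05 was called. Errors after a mean are SDs between lines, and errors after a difference are standard errors. All 8 hepatocyte markers were listed in liver, with a summed level of 4836 to 5647 CPM in B6 lines and 4152 to 6205 CPM in D2 lines in Ctr, and all 8 markers of cortical neurons were listed in cortex. None of the listed markers of 10 cell types was called between haplotypes in Ctr or SD. Their summed levels overlapped between the groups of lines wherever a marker was listed. Some lists were short or empty in a tissue, with 0 of 6 B cell markers in cortex and 0 of 3 pituitary markers in liver. An empty list can show no difference in that tissue. A lower level in such whole tissue can come from fewer cells of a type or from less RNA per cell, and the values cannot tell these apart.

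In cortex of Ctr mice, 23 of 14896 genes (0.154%) were called between D2 and B6 lines, 9 higher (0.0604%) and 14 lower (0.094%) in D2 lines. All 23 lay on chromosome 4 between 10 Mb before *Acot11* and 10 Mb after *Cyp4a32*, where they made up 11.1% of 208 genes, and none of the 14688 other genes was called with limma. With an exact Wilcoxon rank-sum test none was called either, and with voom weights on whole reads 1 was, *Tekt2*, a gene for a protein of cilia elsewhere on chromosome 4. In liver of Ctr mice, 14 of 14107 genes (0.0992%) were called, 5 higher (0.0354%) and 9 lower (0.0638%) in D2 lines, again all of them among the 202 genes of that interval (6.93%). The 14 include *Acot11* and *Cyp4a32*, for which the locus was chosen, so their calls are not independent findings. Outside it, 950 genes in cortex (6.47%) and 605 in liver (4.35%) had an unadjusted p under 0.05, against 26.0% and 19.3% of the genes inside. The genes called include no member of the families of *Acot11* and *Cyp4a32* from other places of the genome.

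**Figure D1:**
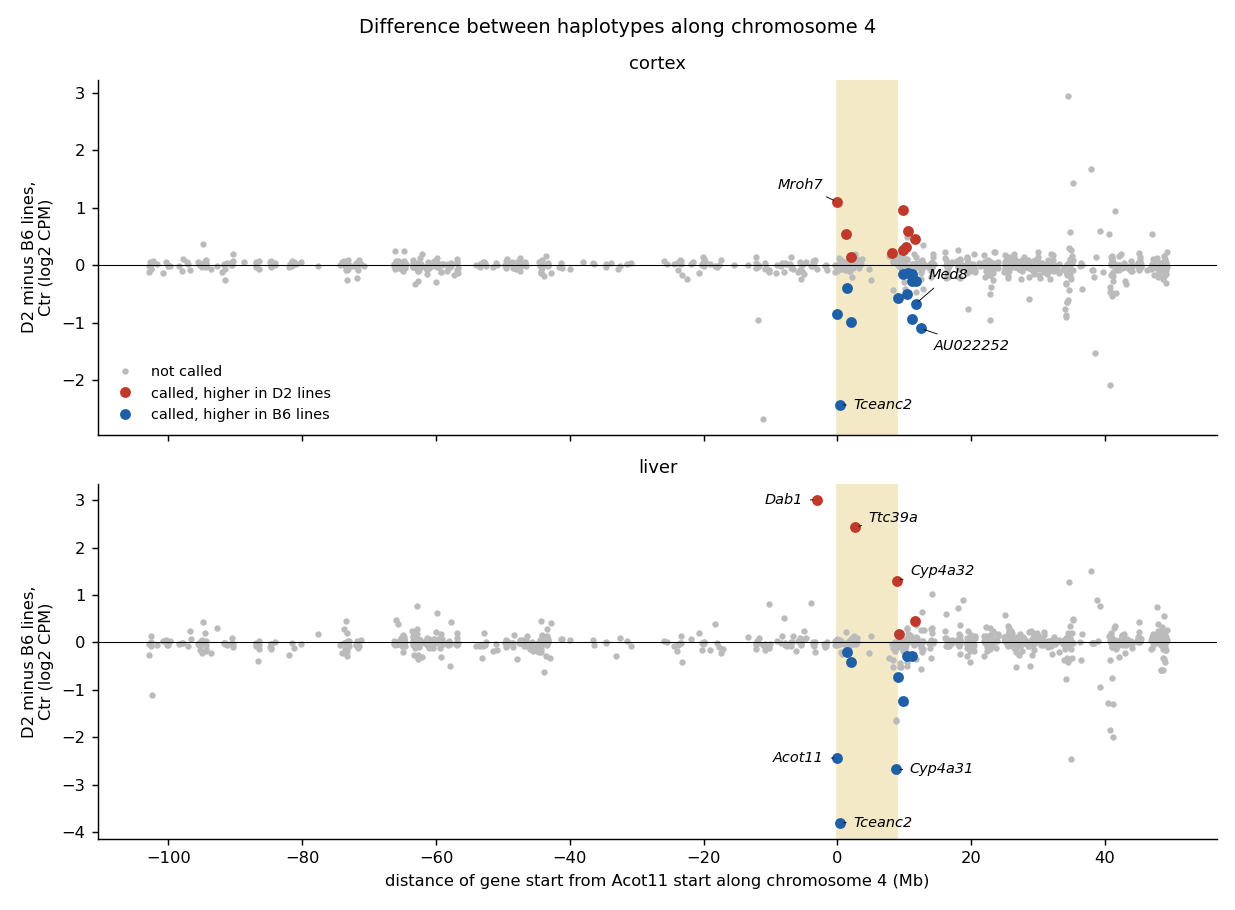
Difference in mean level between D2 and B6 lines in Ctr (log2 CPM, vertical axis) of each gene of chromosome 4 against the distance of its start from that of *Acot11* (Mb, horizontal axis), in cortex (top) and liver (bottom). The band runs from *Acot11* to *Cyp4a32*, coloured points are the 23 genes called in cortex and the 14 called in liver, and all of them lie within 10 Mb of the band, with *Tceanc2* the lowest of the coloured points in both tissues.

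*Tceanc2* separated the haplotypes in every library. In cortex its Ctr level ran from 4.22 to 4.45 log2 CPM in B6 lines (median 4.32) and from 1.40 to 2.44 in D2 lines (median 1.91). In liver it ran from 5.26 to 5.63 in B6 lines (median 5.49) and from 0.89 to 2.46 in D2 lines (median 1.61). The groups did not overlap in either tissue, and the gap between the lowest B6 line and the highest D2 line was 1.78 in cortex and 2.80 in liver. D2 lines were lower, with a log2 difference of -2.43 ± 0.08 in cortex (adjusted p = 1.7e-19, limma) (5.38-fold) and of -3.80 ± 0.14 in liver (adjusted p = 3.8e-18). Its fall from B6 to D2 lines was steeper in liver, by -1.38, in the test on liver minus cortex of each line. *Tmem59*, which encodes a membrane protein of the Golgi and of endosomes, starts next to *Tceanc2* and overlaps it by 718 bases on the opposite strand. It was at 7.19 log2 CPM in B6 lines and 7.18 in D2 lines in cortex and at 7.71 and 7.70 in liver, a difference of -0.01 in both tissues (adjusted p = 0.95 and 1, limma).

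*Acot11* itself differed between the haplotypes in liver, and in cortex it was not called. The locus was chosen for *Acot11* and *Cyp4a32*, so their liver levels are given as a description. In liver of Ctr mice, *Acot11* ran from 4.81 to 6.52 log2 CPM in B6 lines (median 5.63) and from 2.55 to 4.78 in D2 lines (median 3.22). After SD it ran from 4.64 to 5.87 in B6 lines (median 5.30) and from 0.05 to 3.50 in D2 lines (median 2.51). No D2 line reached the lowest B6 line in either condition, but in Ctr the nearest lines were only 0.04 apart, and in SD the D2 line BXD48 was far below the other lines at 0.05. The mean difference was -2.44 ± 0.24 in Ctr and -2.83 ± 0.26 in SD. In cortex of Ctr mice the mean was 5.63 in both groups, and the 95% confidence interval of the difference ran from -0.13 to 0.14. After SD the cortex mean was 6.12 in B6 lines and 5.91 in D2 lines, a difference of -0.22 ± 0.07 with an unadjusted p of 0.0059 that did not pass the adjusted test (adjusted p = 0.58, limma). The liver minus cortex difference of the lines shifted by -2.44 between the haplotypes.

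*Cyp4a32* went the other way in liver and was not listed in cortex. In liver of Ctr mice it ran from 5.32 to 6.76 log2 CPM in B6 lines (median 5.80) and from 6.64 to 7.71 in D2 lines (median 7.13). In SD it ran from 5.69 to 6.29 in B6 lines (median 5.79) and from 7.03 to 7.90 in D2 lines (median 7.28). The groups overlapped by a single B6 line in Ctr and did not overlap in SD, and D2 lines were higher by 1.31 ± 0.13 and 1.49 ± 0.10, or 2.48-fold and 2.81-fold.

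**Figure D2:**
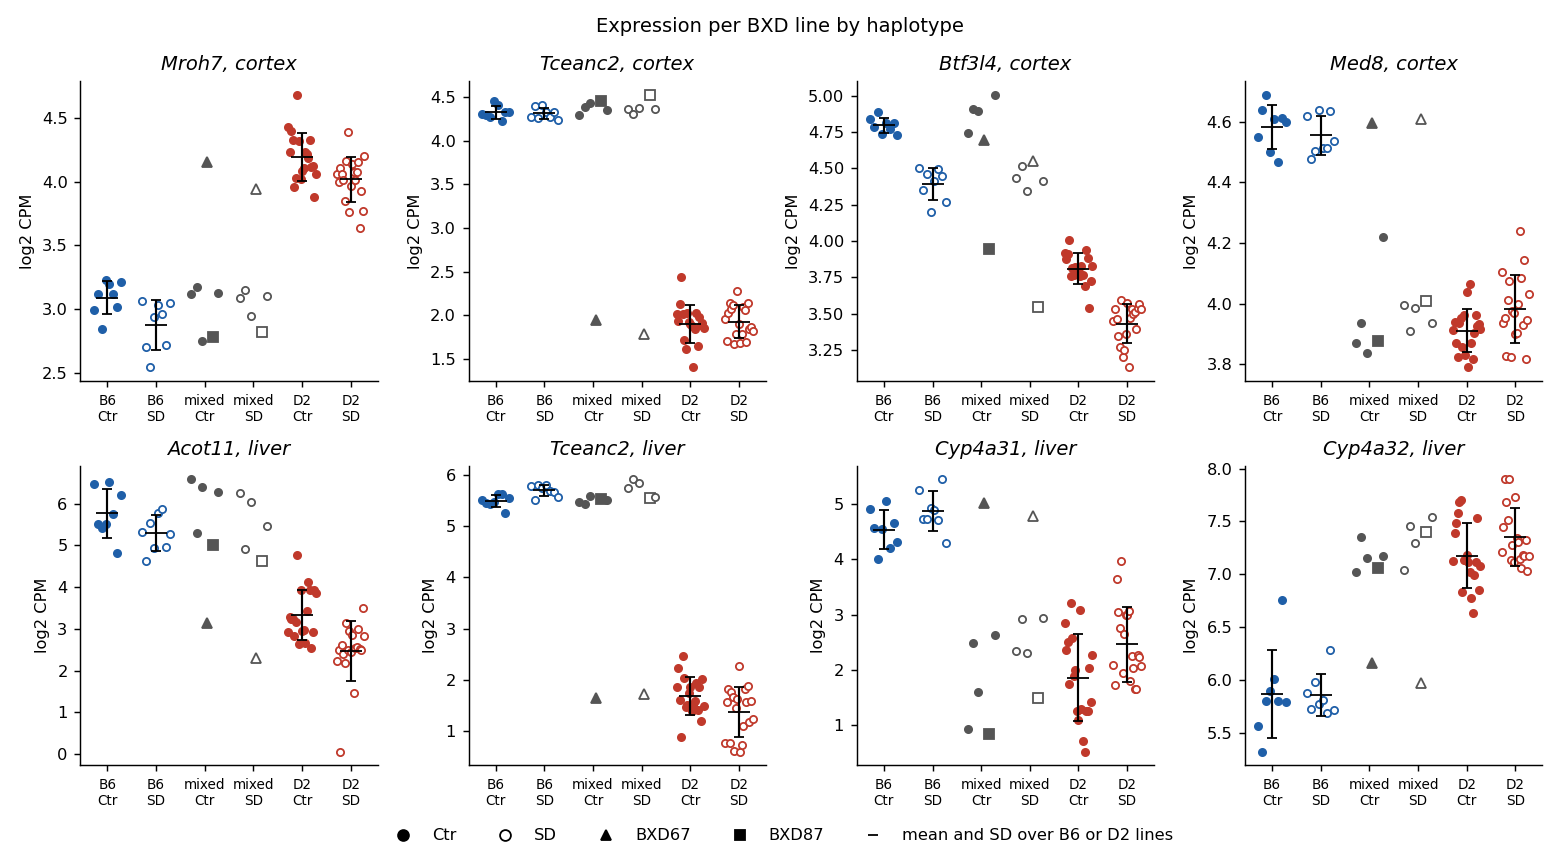
Level of *Mroh7*, *Tceanc2*, *Btf3l4* and *Med8* in cortex and of *Acot11*, *Tceanc2*, *Cyp4a31* and *Cyp4a32* in liver (log2 CPM, vertical axes) in each BXD line, by haplotype and condition. Filled points are Ctr and open points SD, bars give the mean and SD over the 8 B6 or the 19 D2 lines, and among the 6 mixed lines BXD67 (triangle) and BXD87 (square) are marked. *Tceanc2* forms separate bands in both tissues, with BXD67 in the D2 band.

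The cluster of omega-hydroxylase genes around *Cyp4a32* held differences of both signs in liver. Of its 10 genes on the list, 7 were listed in liver, and *Cyp4a32*, by which the lines were split, was called higher and *Cyp4a31* lower in D2 lines, where 0.0992% of all genes in liver were called in Ctr and 0.0922% in SD. *Cyp4a31* (chr4:115236254-115251618, plus strand) ran from 4.01 to 5.06 log2 CPM in B6 lines (median 4.57) and from 0.51 to 3.22 in D2 lines (median 1.89) in Ctr. The groups did not overlap, with a difference of -2.68 ± 0.28 in Ctr (6.41-fold, adjusted p = 4.6e-07, limma) and of -2.41 ± 0.24 in SD. *Cyp4a10* ran from 6.79 to 7.71 in B6 lines (median 7.41) and from 3.27 to 7.39 in D2 lines (median 5.82), with a difference of -1.65 ± 0.41 that did not pass the adjusted test (adjusted p = 0.23, limma). *Cyp4a14* had a similar spread in D2 lines, from 2.74 to 8.01, and a difference of -1.64 ± 0.48 (adjusted p = 0.71, limma). The 2 *Cyp4a12* genes differed by 0.01 ± 0.07 (*Cyp4a12a*) and -0.17 ± 0.14 (*Cyp4a12b*), so that the differences were not shared along the cluster. *Cyp4a32*, *Cyp4a31* and *Cyp4a10* share stretches of 100 bases, the read length, in their transcripts (20.1%, 4.05% and 12.7% of all stretches). Reads of these stretches cannot be given to one gene. How far such reads move these differences was not tested. Summed reads of *Cyp4a31* and *Cyp4a32* were at 84.7 ± 22.1 CPM in B6 lines and 152 ± 33.9 CPM in D2 lines in Ctr (SD, n = 8 and 19) and at 88.8 ± 15.4 and 172 ± 36.9 CPM in SD. Most of the sum was *Cyp4a32*, at 60.9 CPM in B6 lines and 148 CPM in D2 lines in Ctr, and *Cyp4a10* is not part of it.

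Further called genes of liver flanked *Acot11* on both sides. *Dab1*, which encodes the adaptor that carries the reelin signal in neurons, starts 3.13 Mb before *Acot11*. In liver of Ctr mice it was at -1.22 to 4.81 log2 CPM in B6 lines (median -0.18) and at 2.45 to 4.66 in D2 lines (median 3.49), a difference of 3.01 ± 0.53 (adjusted p = 0.0053, limma). A gene without a read is at -2.77 there, so the low values of B6 lines rest on few reads and the size of the difference is uncertain. The wide range of B6 lines came from BXD49 and BXD95, at 4.81 and 3.84, which lay among the D2 lines in SD as well, at 4.72 and 3.15. With an exact Wilcoxon rank-sum test over the lines, *Dab1* was not called (adjusted p = 0.89). In cortex, where *Dab1* is expressed in neurons, the difference was -0.07 ± 0.04. *Ttc39a*, a gene for a tetratricopeptide repeat protein 2.66 Mb after *Acot11*, ran from 1.58 to 4.14 in B6 lines (median 2.15) and from 2.16 to 6.16 in D2 lines (median 5.17). D2 lines were higher by 2.44 ± 0.37 (adjusted p = 5.0e-04, limma), the call was lost with voom weights on whole reads (adjusted p = 0.14), and in cortex the difference was 0.20 ± 0.10.

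The remaining called genes of liver differed less. *Ccdc17*, a coiled-coil gene, was at 3.33 ± 0.16 log2 CPM in B6 lines and 2.09 ± 0.39 in D2 lines in Ctr (SD, n = 8 and 19), a difference of -1.24 ± 0.15 (adjusted p = 7.8e-06, limma). *Atpaf1*, which encodes an assembly factor of the mitochondrial ATP synthase, was lower in D2 lines (difference -0.73 ± 0.13). *Hyi*, which encodes hydroxypyruvate isomerase, ran from 6.24 to 6.58 in B6 lines and from 6.66 to 7.20 in D2 lines and was higher in D2 lines by 0.45 ± 0.05 (adjusted p = 2.7e-06, limma). *Hyi* was higher by 0.45 ± 0.07 in cortex too, at a much lower level. *St3gal3*, a sialyltransferase gene, was lower in D2 lines, with differences of -0.30 ± 0.04 in liver and -0.16 in cortex. *Faah*, which encodes the enzyme that degrades the endocannabinoid anandamide, was higher in D2 lines by 0.17 ± 0.04 in liver of Ctr mice (adjusted p = 0.045, limma) and by 0.15 ± 0.03 in cortex of SD mice (adjusted p = 0.026), differences of 1.13-fold and 1.11-fold. Both calls of *Faah* were lost when some lines were left out. The liver call was kept in 10 of the 27 fits that each left out 1 line, with an adjusted p of up to 0.15 in limma, and was lost without any B6 line but BXD95 and without BXD45, BXD48, BXD55, BXD64, BXD65, BXD70, BXD73, BXD84, BXD85 or BXD89. The cortex call was kept in 22 of 27 and lost without BXD44, BXD49, BXD61, BXD83 or BXD96 (adjusted p up to 0.11, limma).

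In cortex, the called genes around *Acot11* included *Mroh7*, a gene for a protein with HEAT-like repeats that starts 0.06 Mb before it. *Mroh7* was at 2.85 to 3.23 log2 CPM in B6 lines (median 3.12) and at 3.88 to 4.68 in D2 lines (median 4.19) in Ctr, and the groups did not overlap. D2 lines were higher by 1.10 ± 0.07 (adjusted p = 5.2e-12, limma), or 2.15-fold. *Ttc22*, another gene for a tetratricopeptide repeat protein 0.12 Mb before *Acot11*, differed by -0.84 ± 0.13 in Ctr (adjusted p = 4.0e-04, limma) and by -0.33 ± 0.14 in SD (adjusted p = 0.70). *Btf3l4*, named for its likeness to the transcription factor BTF3, lies 2.07 Mb after *Acot11*. In cortex it ran from 4.73 to 4.89 in B6 lines and from 3.54 to 4.01 in D2 lines in Ctr, a difference of -0.99 ± 0.04 (adjusted p = 6.7e-17, limma). In liver the difference of *Btf3l4* was -0.41 ± 0.06 (adjusted p = 7.9e-04), smaller than in cortex by 0.58.

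Beyond *Cyp4a32*, cortex had a second group of called genes. *Med8*, which encodes a subunit of the Mediator complex that links transcription factors to RNA polymerase II, ran from 4.47 to 4.69 log2 CPM in B6 lines and from 3.79 to 4.06 in D2 lines in Ctr, with no overlap. The difference was -0.67 ± 0.03 (adjusted p = 1.0e-14, limma). In liver the difference of *Med8* was -0.02 ± 0.04, and the difference between the tissues passed the test. *C530005A16Rik*, a gene antisense to parts of *Ccdc17* and *Gpbp1l1*, ran from 2.70 to 3.05 in B6 lines and from 3.66 to 4.08 in D2 lines and was higher in D2 lines by 0.96 ± 0.05 (adjusted p = 1.9e-14, limma). *AU022252* differed by -1.10 ± 0.10 in cortex (adjusted p = 2.1e-08) and by -0.06 ± 0.04 in liver. The D2 lines of *AU022252* ran from 1.93 to 3.51 in Ctr, and the highest of them, BXD71, lay near the B6 lines, which ran from 3.56 to 3.73. *AU022252* shares 13111 bases on the same strand with *4930538K18Rik*, and reads of these bases cannot be told apart.

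*Tmem53*, a gene for a membrane protein, was higher in D2 lines in cortex by 0.60 ± 0.07 log2 CPM and *Mob3c*, of the family of MOB kinase activators, lower (-0.57 ± 0.09). *Ccdc24* was lower (-0.94 ± 0.17), and 29.7% of the 100-base stretches of its transcript also occur in *B4galt2*, a galactosyltransferase gene that overlaps it and differed by -0.27. *Elovl1*, which encodes an elongase of very long fatty acids, differed by -0.27 ± 0.06 in Ctr (adjusted p = 0.037, limma) and by -0.38 ± 0.05 in SD (adjusted p = 1.8e-05). *Podn*, which encodes a small proteoglycan, was higher by 0.54 ± 0.08 and *Eif2b3*, a subunit of the translation initiation factor eIF2B, by 0.32. Among the other genes called in cortex in Ctr, *Echdc2*, *Cmpk1*, *Txndc12*, *Ipp*, *Gpbp1l1*, *St3gal3* and *Rnf220* differed by 0.39 or less.

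The same comparison after SD called 21 genes in cortex (0.141% of all genes), 11 higher (0.0738%) and 10 lower (0.0671%) in D2 lines, and 13 in liver (0.0922%), 5 higher (0.0354%) and 8 lower (0.0567%). Those of liver again include *Acot11* and *Cyp4a32*, for which the locus was chosen. Genes called in Ctr and in SD numbered 18 in cortex, 78.3% of those called in Ctr and 85.7% of those called in SD, and 11 in liver, 78.6% and 84.6%. Each of the 26 genes of cortex and the 16 of liver that were called in either condition had the same sign in both. *Ppt1*, which encodes a lysosomal palmitoyl-protein thioesterase, and *Zcchc11*, which encodes an enzyme that adds uridines to RNA, were called in cortex in SD and not in Ctr. *Ppt1* was higher in D2 lines by 0.25 ± 0.04 in SD (adjusted p = 0.0038, limma) and by 0.24 ± 0.06 in Ctr (adjusted p = 0.14), and these 2 values differed by less than their standard errors. *Zcchc11* differed by -0.21 ± 0.04 in SD and by -0.10 ± 0.04 in Ctr. *Tie1*, an endothelial receptor kinase gene, was higher in D2 lines by 0.32 ± 0.06 in liver in SD (adjusted p = 0.027) and by 0.37 ± 0.08 in Ctr (adjusted p = 0.057). With BXD95, a B6 line, left out, 8 genes were called in liver in SD in place of 13. In SD, *Ccdc17* in liver lost its call without BXD61, BXD95 or BXD96 and *Atpaf1* without BXD61 or BXD95 (adjusted p up to 0.076 for each, limma). *Btf3l4* in liver lost its call without BXD44 or BXD95 (adjusted p up to 0.055, limma).

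*Enpp6*, which encodes a phosphodiesterase that acts on choline-containing lipids, was the single gene outside the interval whose level within a tissue was called with limma. An exact Wilcoxon rank-sum test in SD called 1 gene outside it in each tissue, *Zfp689* in cortex and *Hemk1* in liver. *Enpp6* lies on chromosome 8 (chr8:48072279-48180249). In liver after SD it ran from 1.80 to 3.67 log2 CPM in B6 lines (median 2.46) and from 0.28 to 2.55 in D2 lines (median 1.16). The groups overlapped, and the difference was -1.30 ± 0.24 (adjusted p = 0.014, limma). In Ctr it was -0.69 ± 0.22 (adjusted p = 0.93). The call in SD was lost with an exact Wilcoxon rank-sum test (adjusted p = 0.057) and without BXD66 or BXD95 (adjusted p = 0.069 each).

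**Figure D3:**
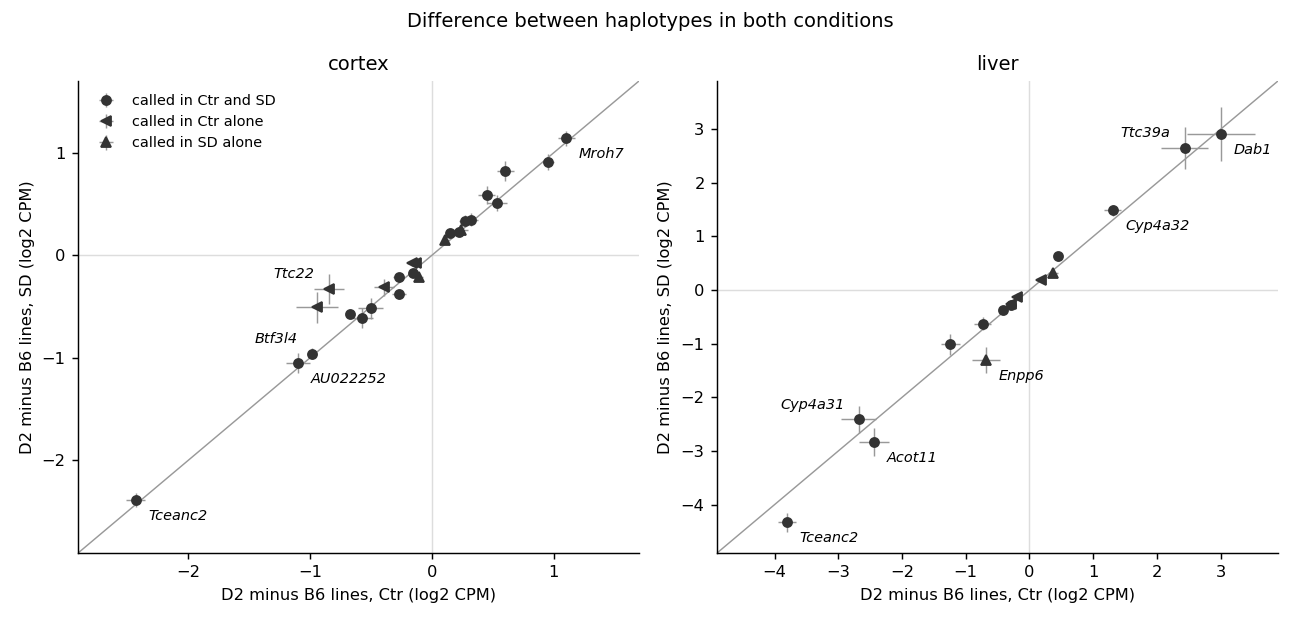
Difference between D2 and B6 lines in SD (vertical axis) against that in Ctr (horizontal axis), both in log2 CPM, for the genes called in either condition in cortex (left, 26 genes) and liver (right, 16 genes). Bars are standard errors and the line marks equal differences. Every point has the same sign on both axes.

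The change from Ctr to SD was compared between the haplotypes on the SD minus Ctr value of each line. No gene was called in cortex (0%) or in liver (0%) with limma. An unadjusted p under 0.05 was reached by 874 genes in cortex and 698 in liver. Voom weights on whole reads gave 0 calls in both tissues, as did an exact Wilcoxon rank-sum test, which had 865 and 723 genes at an unadjusted p under 0.05. In the interval around both genes, 7.21% of the genes in cortex and 5.45% in liver had an unadjusted p under 0.05, near the 5.85% and 4.94% of all other genes. For a gene of median precision, the 95% confidence interval of this difference reached 0.11 to either side in cortex and 0.22 in liver, for a single test with no adjustment. A call after adjustment needs a larger difference.

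For no gene of the interval did the haplotype difference change with SD past the adjusted test. *Acot11* in liver changed after SD by -0.48 ± 0.17 in B6 lines (adjusted p = 0.076, limma), where 22.6% of all genes were called for a change, and by -0.88 ± 0.16 in D2 lines (adjusted p = 2.7e-04), where 35.8% were. The changes differed by -0.39 ± 0.28, with a 95% confidence interval from -0.96 to 0.17. *Cyp4a32* changed by -0.01 ± 0.10 in B6 lines and rose by 0.17 ± 0.04 in D2 lines (adjusted p = 0.0047, limma), and the changes differed by 0.18 ± 0.09. *Tceanc2* in liver rose by 0.21 ± 0.05 in B6 lines (in 8 of 8 lines, adjusted p = 0.028) and fell by 0.32 ± 0.09 in D2 lines (adjusted p = 0.010, limma). The difference of these changes, -0.53 ± 0.15, did not pass the adjusted test (adjusted p = 0.87).

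In cortex, *Acot11* rose after SD in both groups of lines, by 0.50 ± 0.08 in B6 lines (in 8 of 8 lines, adjusted p = 6.4e-04, limma) and by 0.28 ± 0.03 in D2 lines (in 18 of 19 lines, adjusted p = 3.8e-08). Among all genes of cortex, 57.7% were called for a change in B6 lines and 64.9% in D2 lines. The changes of *Acot11* differed by -0.22 ± 0.07, which did not pass the adjusted test (adjusted p = 0.83). The change of *Btf3l4* was -0.40 in B6 lines and -0.38 in D2 lines, that of *C530005A16Rik* -0.63 and -0.67, and that of *Tceanc2* -0.01 and 0.03. *Cyp4a10* and *Cyp4a14* rose in liver in both groups, *Cyp4a10* by 0.37 ± 0.11 in B6 lines (adjusted p = 0.038, limma) and 0.79 ± 0.21 in D2 lines (adjusted p = 0.0069).

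The lowest p for a difference in change in cortex was that of *Gem*, which encodes a small GTPase induced by activity. It rose by 1.72 in B6 lines and 0.83 in D2 lines, a difference of -0.89 ± 0.18 (adjusted p = 0.35, limma), and it lies on chromosome 4 outside the interval. The next were *P2ry13* and *P2ry12*, neighbouring genes for purine receptors of microglia on chromosome 3. *P2ry12* changed by -0.48 in B6 lines and -0.27 in D2 lines (adjusted p of the difference = 0.35). In liver it was *Odf2*, which encodes a centrosome protein, with 0.41 in B6 lines and 0.04 in D2 lines (adjusted p = 0.32). None of these passed the test.

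Lists of genes with related functions held few called members. Of all genes, 0.0992% were called in liver in Ctr and 0.0922% in SD, and 0.154% in cortex in Ctr and 0.141% in SD. Of 14 acyl-CoA thioesterases listed in liver, *Acot11*, by which the lines were split, was called and the other 13 were not. Of 24 listed genes of fatty acid oxidation and PPAR alpha targets, none was called in liver in Ctr or SD, with a median difference of -0.03 in Ctr beside 0.00 over all genes. *Fgf21*, which encodes a fasting hormone of liver, had the largest difference of that list in SD, 0.69 (adjusted p = 0.87, limma). Among 19 enzymes of arachidonic acid and endocannabinoids in liver and 17 in cortex, *Faah* was called, in liver in Ctr and in cortex in SD, with the losses given above when single lines were left out. No member was called among the 20 genes of phosphatidylcholine and ether lipid synthesis or the 20 of branched-chain amino acid degradation listed in cortex, nor among the 19 of each list in liver. *Pla2g6*, a phospholipase gene, had a difference of 0.19 in cortex in Ctr (adjusted p = 0.79), and *Bckdk*, the kinase that inhibits branched-chain amino acid breakdown, one of 0.16 in liver in SD (adjusted p = 0.87).

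Many genes known to respond to sleep loss moved in both groups of lines. Several of them, such as *Arc*, *Egr2* and *Fos*, are among those the paper reports as most changed by SD in these same libraries. The counts of changed genes that follow are therefore a description and not independent support. Of 24 listed in cortex, 22 were called for a change in each group of lines, 20 of them up and 2 down, where 57.7% of all genes were called in B6 lines and 64.9% in D2 lines, with a median change of 1.46 in B6 lines and 1.10 in D2 lines. In liver 18 were listed, of which 8 rose and 2 fell in B6 lines and 8 rose and 4 fell in D2 lines, where 22.6% and 35.8% of all genes were called. In cortex, none of the 24 was called between the haplotypes in Ctr, in SD or for the change, and an unadjusted p under 0.05 was reached by 0, 12 and 3 of them. The levels in SD had a median difference of -0.20 beside 0.00 over all genes. Of all 14896 genes, 1004, 983 and 874 had an unadjusted p under 0.05. *Egr2*, an immediate early gene, had the largest difference in change, -0.85 (adjusted p = 0.99, limma).

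The mixed lines place the differences along the chromosome. Genes whose B6 and D2 lines did not overlap in Ctr nor in SD numbered 6 in cortex (0.0403% of all genes) and 4 in liver (0.0284%), and all lay in the interval. For each of them a mixed line was put on the side of the nearer haplotype mean. *Mroh7* and *Tceanc2* followed the allele at *Acot11* in all 6 mixed lines and in both conditions. *Acot11* in liver did so too, but the alleles are those marked for *Acot11* itself, so this adds nothing to the placement. *Tceanc2* was at 1.78 in cortex of BXD67 in SD and at 4.31 to 4.53 in the other 5 mixed lines, and in liver in Ctr at 1.64 and at 5.44 to 5.59. *Acot11* in liver in Ctr was at 3.13 in BXD67 and at 5.00 to 6.58 in the other 5. *Cyp4a31*, *C530005A16Rik* and *Med8* followed the allele at *Cyp4a32*. *Cyp4a31* was at 5.02 in liver of BXD67 in Ctr and at 0.83 to 2.64 in the others, and *Med8* at 4.60 in cortex of BXD67 and at 3.84 to 4.22 in the others. The highest of these, BXD90, lay outside the range of either haplotype in Ctr, at 0.54 of the way from the B6 mean to the D2 mean, and at 1.08 in SD. *C530005A16Rik* placed BXD67 on the B6 side by less, at 0.37 and 0.48 of the way from the B6 mean to the D2 mean in Ctr and SD.

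*Btf3l4* followed neither gene. In cortex, BXD87 was at 3.94 in Ctr, within the range of D2 lines, while BXD67 was at 4.69 and the other 4 mixed lines at 4.74 to 5.01, near the B6 lines. BXD67 thus went from D2-like at *Tceanc2* to B6-like at *Btf3l4*, and BXD87 from B6-like to D2-like, across the 1.64 Mb between the end of *Tceanc2* (position 106851721) and the start of *Btf3l4* (position 108486900). BXD43, BXD90, BXD100 and BXD101 were B6-like at *Btf3l4* and D2-like at *Cyp4a31*, across 6.73 Mb from position 108506219 to position 115236254. *Ttc39a*, which lies inside that stretch, was at 4.78 in liver of BXD87, the D2-like line at *Btf3l4*, and at 0.11 to 2.76 in the other 5 mixed lines in Ctr. *Tmem53* and *Hyi* matched the pattern of *Cyp4a32* except in 1 line each, BXD101 for *Tmem53* and BXD67 for *Hyi*. *Dab1* in liver was at 3.06 in BXD67 and at 4.41 in BXD90, among the D2 lines, and at -1.10 to 0.14 in the other 4.

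**Figure D4:**
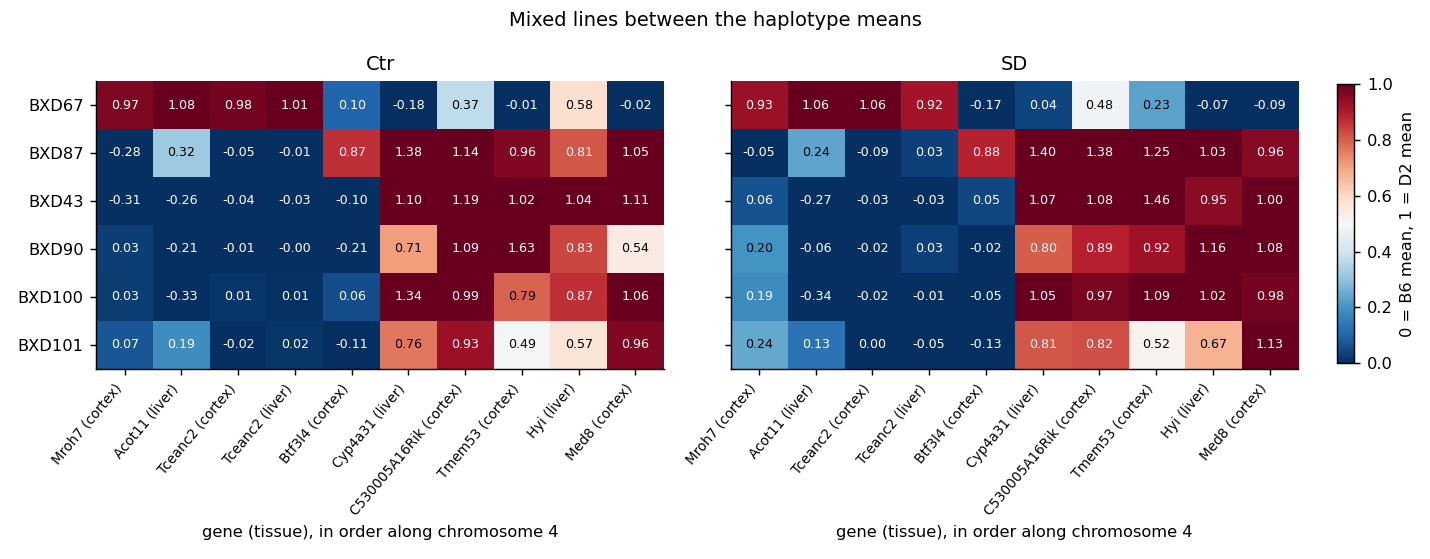
Position of each of the 6 mixed lines between the mean of the B6 lines (0) and that of the D2 lines (1), as colour, for the genes (columns, in order along chromosome 4, with the tissue) whose B6 and D2 lines did not overlap, in Ctr and SD. BXD67 turns from the D2 to the B6 mean between *Tceanc2* and *Btf3l4*, where BXD87 turns the other way, and the other 4 lines turn further along.

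At some called genes a line lay closer to the mean of the other haplotype in both conditions. *Ppt1*, 16.1 Mb after *Acot11*, was closer to the D2 mean in the B6 lines BXD75 and BXD83 and closer to the B6 mean in the D2 line BXD71. BXD71 was also B6-like at *AU022252*, at 3.51 in Ctr and 3.82 in SD. At *Tceanc2*, *Mroh7*, *Btf3l4*, *C530005A16Rik* and *Med8* in cortex no line was on the other side.

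The parental strains carry each haplotype along the whole chromosome. DBA/2J minus C57BL/6J, each the average of 2 pools, had the sign of D2 minus B6 lines for 23 of 23 genes called in cortex in Ctr, 21 of 21 in SD, and 14 of 14 and 13 of 13 in liver. Both counts of liver include *Acot11* and *Cyp4a32*, for which the locus was chosen. The pools of the parents did not overlap for 18 of the 23 and 18 of the 21 in cortex and for 13 of the 14 and 12 of the 13 in liver, and for the rest the sign is not resolved by these pools. *Tceanc2* differed by -2.40 in cortex and -3.88 in liver between the parents in Ctr, close to the lines. *Ttc39a* differed by 5.14 in liver in Ctr, more than the 2.44 between the lines, and by 2.98 in SD, against 2.65 between the lines. *Acot11* in liver differed by -0.80 in Ctr, less than between the lines, with C57BL/6J pools at 5.23 and 5.47 and DBA/2J pools at 4.22 and 4.89. In SD the parents differed by -1.56. The F1 pools of *Acot11* were above both parents in Ctr, at 5.90 and 6.17, and between them in SD, at 4.52 and 4.68. For *Tceanc2* in liver in Ctr they were at 4.73 and 4.54, between the parents. Both F1 pools lay between the parents for 15 of the 23 genes in cortex and 9 of the 14 in liver in Ctr.

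BXD48 and BXD96 are sublines of one line by their labels, and BXD48 is a D2 line and BXD96 a B6 line. They differed by at least 1 in both conditions at 53 genes in cortex, 3 of them in the interval (*Mroh7*, *Tceanc2* and *AU022252*), which is 1.44% of its genes against 0.34% of the others. The other 151 pairs of a B6 and a D2 line differed at 142 to 282 genes (median 203), 1 to 6 of them in the interval (median 3). In liver it was 306 genes against 365 to 851 (median 507), and 11 of the 306 were in the interval (5.45% of its genes against 2.12% of the others), where the other pairs had 4 to 17 (median 12). Of the genes at which BXD48 and BXD96 differed, chromosome 7 held the most, 18 in cortex and 45 in liver. *Tceanc2* was at 2.12 in cortex of BXD48 and 4.33 in cortex of BXD96 in Ctr, and *Acot11* at 3.22 and 6.21 in liver. BXD48 minus BXD96 had the sign of D2 minus B6 lines for all 23 genes called in cortex and all 14 in liver in Ctr. Both lines are part of the comparison itself, so this is a description of the pair.

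**Figure D5:**
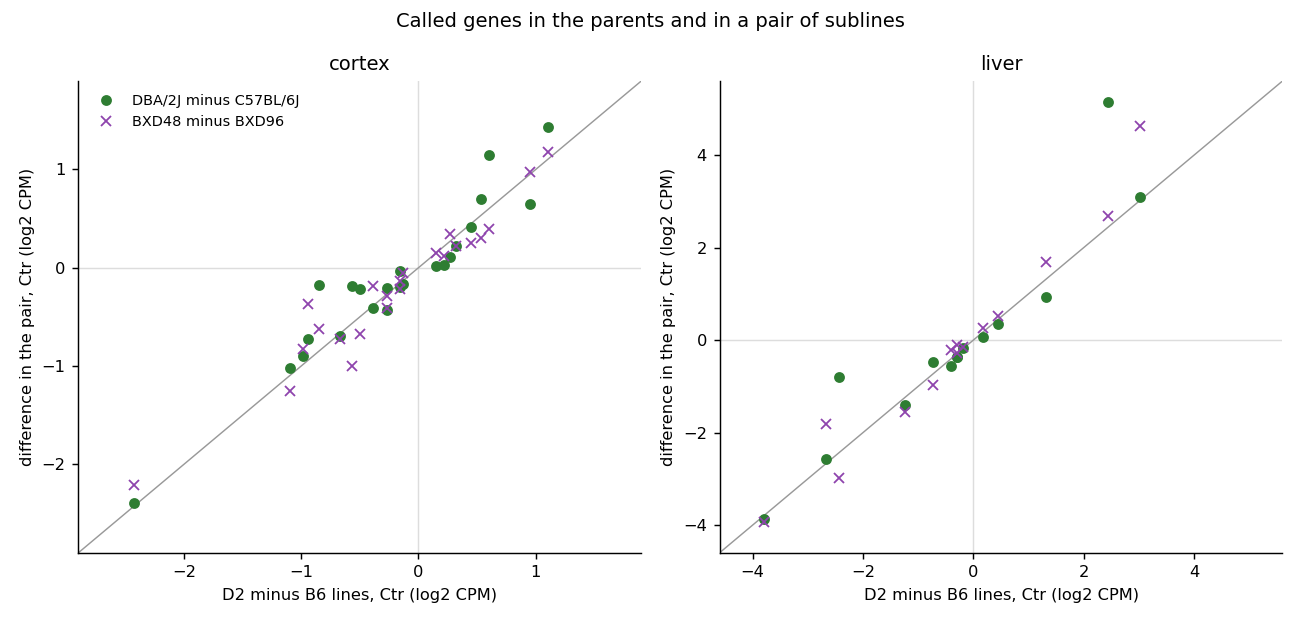
Difference in Ctr (log2 CPM, vertical axis) between the parental strains (points) and between the sublines BXD48 and BXD96 (crosses) against that between D2 and B6 lines (horizontal axis), for the 23 genes called in cortex (left) and the 14 in liver (right). The line marks equal differences. *Acot11* of liver, at -2.44 on the horizontal axis, lies at -0.80 in the parents and -2.98 in the sublines.

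Between the tissues, 6 genes were called in both in Ctr, 26.1% of the 23 of cortex and 42.9% of the 14 of liver, and 4 in both in SD. With Ctr and SD pooled, 7 genes were called in both, with the same sign, which is 26.9% of the 26 genes of cortex and 43.8% of the 16 of liver. Of these 26 and 16 genes, 5 were listed in one tissue alone (*Cyp4a31*, *Cyp4a32*, *Ccdc24*, *Mroh7* and *Ttc22*) and could not be called in both. Among the 7, *Faah* was called in liver in Ctr and in cortex in SD, and the others included *Btf3l4*, *Echdc2*, *Hyi*, *St3gal3* and *Tceanc2*. The difference between D2 and B6 lines itself differed between liver and cortex in Ctr at 12 of 12695 genes (0.0945%), 8 with a higher value in liver (0.063%) and 4 with a lower one (0.0315%). Of these 12, 10 lay in the interval. *Acot11* is among them, and the locus was chosen for it because of its level in liver, so its call is a description. *Dab1* and *Ttc39a* had the highest values in liver relative to cortex, 3.08 and 2.24, and *Acot11* and *Tceanc2* the lowest, -2.44 and -1.38. The others in the interval were *AU022252*, *Med8*, *Btf3l4*, *Elovl1*, *Atpaf1* and *Ccdc17*. The other 2 were *Pth1r*, which encodes the parathyroid hormone receptor, and *Ruvbl2*, which encodes an ATPase of chromatin remodelling complexes. Their shifts were 0.52 and 0.23, and neither was called within a tissue. With liver and cortex of a line not paired, *Ruvbl2* lost its call.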

How the data were processed

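RNA-seq of cortex and liver was read from 4 tables of log2 CPM, 1 per tissue and condition. The log2 CPM values are as deposited: from stranded poly(A) libraries, the authors aligned single-end reads of 100 bases to mm9 with STAR, counted them per RefSeq gene with htseq-count in the reverse-stranded mode, dropped genes of low mean count, and normalized the rest with edgeR's TMM method. RNA was pooled over usually 3 mice of a line, and over fewer for BXD79, BXD85 and BXD101. Reversing the scaling returned whole numbers of reads (tolerance 0.02) for 100% of values, used for depth and voom. All lines were aligned to the same reference, and how far this moves counts of D2 alleles was not tested.

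D2 and B6 lines were compared in limma 3.58.1 (R 4.3.3; lmFit, eBayes with a variance trend) on log2 CPM in Ctr and SD and on SD minus Ctr of each line. The p values therefore measure the spread between lines. Summary statistics and exact Wilcoxon tests were computed in scipy 1.17.1. The fits were tested on simulated data. Ctr and SD pools of a line share the genotype, and deviated together in each group (lowest median correlation 0.48), so the line was the block for changes. Named were *Acot11* and *Cyp4a32*, the 10 called genes of the interval with the largest difference in Ctr per tissue, called genes elsewhere, genes beside a switch of a mixed line, and called members of each list and at least 1 other. Other genes were named after their values were seen. Results of some genes are not reported here. Members and lists were chosen with earlier results of these data known. Gene positions are those of GENCODE M1 on NCBIM37 (mm9). Alternatives were no trend, median centring, quantile normalization, a mean of at least 0 log2 CPM, voom, linear CPM, an exact Wilcoxon test, other sets of lines, both single alleles, and each line left out.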

Additional observations from a re-analysis of the deposited data

Results flagged for a closer look

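In groups of lines small enough to be tested for a single value far from the rest, 17 of 84 were marked, where chance alone marks about 1 in 20. Of these, 16 were among the 6 mixed lines, which differ in haplotype by construction. BXD67, the line with the D2 allele at *Acot11*, stood apart from the other 5 mixed lines in log2 CPM in 14 of them. In cortex it was lowest for *Tceanc2* (1.95 in Ctr, 1.78 in SD) and *C530005A16Rik* (3.26 in Ctr), and highest for *Mroh7* (4.16 in Ctr, 3.94 in SD), *AU022252* (3.71 in Ctr, 3.74 in SD), *Med8* (4.61 in SD) and *Mob3c* (2.48 in SD). In liver BXD67 was lowest for *Tceanc2* (1.64 in Ctr, 1.73 in SD) and *Cyp4a32* (6.16 in Ctr, 5.97 in SD) and highest for *Atpaf1* (4.20 in Ctr). BXD87 was lowest for *Btf3l4* in cortex (3.94 in Ctr, 3.54 in SD). Among the B6 lines, BXD49 was highest for *Hyi* in liver in SD, at 6.54 log2 CPM.

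The difference between D2 and B6 lines differed between tissues in Ctr, by the test on liver minus cortex of each line (limma, adjusted over 12695 genes). It was higher in liver for *Dab1* (3.08), *Ttc39a* (2.24), *AU022252* (1.04), *Med8* (0.66), *Btf3l4* (0.58), *Pth1r* (0.52), *Elovl1* (0.37) and *Ruvbl2* (0.23). It was lower in liver for *Acot11* (-2.44), *Tceanc2* (-1.38), *Ccdc17* (-1.12) and *Atpaf1* (-0.85). The locus was chosen for *Acot11* because of its level in liver, so the value of *Acot11* is a description.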

How the results depend on the processing

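Splitting all 33 lines by the allele at *Acot11* alone called 5 genes in cortex in Ctr, 6 in SD, 8 in liver in Ctr and 5 in SD, and splitting them by that at *Cyp4a32* called 8 in liver in SD. These splits put mixed lines with each group. Apart from leaving out single lines, the other alternatives kept the counts within 1.5 times those reported. Among these alternatives was a fit without BXD97 and BXD103. Leaving out each line in turn gave 17 to 27 genes in cortex in Ctr, 20 to 24 in SD, 12 to 16 in liver in Ctr, 8 to 15 in SD, and 0 in either change. The lowest count in liver in SD was that without BXD95, and the cause was not tested. With no replicate block, that is without pairing Ctr and SD of a line, the change was called at 0 genes in cortex and 0 in liver (300 and 226 at an unadjusted p under 0.05). Without pairing liver and cortex of a line, the tissue difference was called at 15 genes in place of 12. Of these 15, 3 lay outside the interval (*Igsf3*, *Ptgfrn* and *Pth1r*), so that *Ruvbl2* was no longer called. No value reversed. Of 1906 values of 29 named genes under the alternatives, 1820 kept their direction and call, and 79 lost the call. *Cyp4a10* in liver in Ctr was called with voom (adjusted p = 0.029), with the exact Wilcoxon test (adjusted p = 0.041) and in the split by *Cyp4a32* (adjusted p = 0.036). *Btf3l4* in liver in SD lost its call with median-centred libraries (adjusted p = 0.055).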

Other observations

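The 4 BXD/TyJ lines entered no comparison. *Tceanc2* was at 1.62, 1.95, 2.06 and 1.96 log2 CPM in cortex in Ctr and at 1.22, 1.47, 1.51 and 1.65 in liver in SD in BXD05, BXD29, BXD29t and BXD32, in that order. *Acot11* was at 3.11, 4.37, 4.27 and 3.17 and *Cyp4a32* at 7.53, 6.97, 6.97 and 6.88 in their livers in Ctr. *Dab1* in liver was at 4.40, 5.18, 5.43 and -0.76.

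A large difference that did not pass the test was also seen on chromosome 4 outside the interval, in a gene named after its values were seen. In cortex in Ctr, *Fggy*, a carbohydrate kinase gene 11.2 Mb before *Acot11*, differed by -2.67 (adjusted p = 0.73, limma).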
